A study of Mus musculus with 5 samples.

Results

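The genes described here are 9 members of the retinoic acid pathway, chosen by name: the synthesis enzymes Aldh1a1, Aldh1a2 and Aldh1a3, the receptors Rara, Rarb and Rarg, the binding proteins Crabp1 and Crabp2, and the retinol transporter Stra6. Each had a row in both deposited matrices, so 9 of the 32793 genes listed are covered. They were read in 5 bulk RNA-seq libraries of whole mouse kidneys at embryonic day 15.5. The 2 NICD_mut libraries carried the Cre driver Six2TGC/+, which makes Cre recombinase in nephron progenitors, and the allele RosaN1ICD∆PEST, from which Cre releases an activated Notch1 without its PEST domain. The 3 NICD_wt libraries carried RosaN1ICD∆PEST alone, without Cre. The driver and activated Notch1 therefore cannot be told apart, and whether libraries stand for separate animals is not stated in the labels, so the tests speak of the spread among these 5 libraries, part of which may be technical. The study set them side by side to learn what activated Notch1 in nephron progenitors does to the kidney that forms.

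Retinol enters cells through the membrane receptor Stra6 and is oxidised to retinal, mainly by Rdh10 in the embryo, and then to retinoic acid by the Aldh1a enzymes. Retinoic acid binds nuclear receptors of the Rar family, which sit on DNA with an Rxr partner, and Cyp26 enzymes degrade it. Crabp2 carries retinoic acid to the nuclear receptors, while Crabp1 holds it in the cytoplasm. In the mouse embryonic kidney Aldh1a2 marks the stroma, and stromal retinoic acid signalling is needed for expression of the receptor Ret in the ureteric bud.

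Libraries held 17361823 to 21356447 estimated counts. Notch1 had 288 and 324 CPM (counts brought to 1 library size with TMM factors) in NICD_mut, against 127, 142 and 120 CPM in NICD_wt; a count per gene does not separate transgene from endogenous reads. Of the kidney transcription factors, Pax8 had 164 and 233 CPM in NICD_mut and 106, 118 and 117 CPM in NICD_wt, Pax2 had 35.2 and 53.2 CPM in NICD_mut and 171, 187 and 162 CPM in NICD_wt, and the nephron progenitor marker Six2 had 0.328 and 0.296 CPM in NICD_mut and 134, 141 and 139 CPM in NICD_wt. Of 10 skeletal muscle markers, summed CPM was 4005 in NICD_mut 1 and 28.5 in NICD_mut 2, against 180 in NICD_wt 1, 18.7 in NICD_wt 2 and 20.0 in NICD_wt 3. NICD_mut 1 thus stood apart. Results of members and named retinoid genes are given without it where a call changed, a sign turned or a called value moved by over 1.5-fold. The marker lists were not counted again without it. A fit that leaves out either NICD_mut library keeps 1 library in that group. Passing there says nothing about the spread within NICD_mut. The edgeR quasi-likelihood test called 47.7% of 15885 tested genes at a Benjamini-Hochberg adjusted p under 0.05, with 23% higher and 24.8% lower in NICD_mut. The higher genes were 48.1% of those called, against 60.7% by limma on log2(TPM + 1). In bulk kidneys, fewer cells of a type and less RNA per cell cannot be told apart.

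Promoter windows from RefSeq (GRCm38.p6, the assembly of mm10) were matched for 7 of the 9 genes; Aldh1a3 and Crabp2 were not among them. A retinoic acid receptor motif was searched as any pair, in the same orientation, of the hexamers spelled AGGTCA, spelled AGTTCA, spelled GGGTCA and spelled GGTTCA with 1, 2 or 5 bases between them, on both strands. It was found in 0.588% of all 32851 promoter windows and, among the windows of the members, in that of Rarb alone. There it reads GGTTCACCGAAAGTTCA, starting at position -53 from the start site. The 7-base Notch cofactor (Rbpj) motif, GTGGGAA or ATGGGAA on both strands, was in 11.2% of windows; among the members a window of Rara held it, at position -213 of the upstream start site, and a second Rara window that overlaps this one held the same match. A match is only a description of the letters. The windows of Rarb, which holds the receptor motif, of Rara, which holds the Rbpj motif, and of Aldh1a1, the member with the highest rise, follow 5′ to 3′ on the strand of the gene, with matches in capitals; the Aldh1a1 window shown holds neither motif.
Rarb, chr14:16575427-16575726, minus strand: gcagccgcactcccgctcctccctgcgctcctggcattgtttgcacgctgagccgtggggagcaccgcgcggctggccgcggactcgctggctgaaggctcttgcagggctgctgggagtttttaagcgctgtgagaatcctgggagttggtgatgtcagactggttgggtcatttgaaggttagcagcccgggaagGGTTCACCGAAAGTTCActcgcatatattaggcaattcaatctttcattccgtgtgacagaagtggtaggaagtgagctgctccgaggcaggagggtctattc
Rara, chr11:98937446-98937745, plus strand: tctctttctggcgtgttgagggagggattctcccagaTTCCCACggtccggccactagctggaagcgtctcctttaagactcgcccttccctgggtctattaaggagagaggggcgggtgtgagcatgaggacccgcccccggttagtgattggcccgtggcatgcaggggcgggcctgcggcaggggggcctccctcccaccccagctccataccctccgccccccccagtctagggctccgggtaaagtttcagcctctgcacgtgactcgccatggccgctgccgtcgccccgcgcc
Aldh1a1, chr19:20601718-20602017, plus strand: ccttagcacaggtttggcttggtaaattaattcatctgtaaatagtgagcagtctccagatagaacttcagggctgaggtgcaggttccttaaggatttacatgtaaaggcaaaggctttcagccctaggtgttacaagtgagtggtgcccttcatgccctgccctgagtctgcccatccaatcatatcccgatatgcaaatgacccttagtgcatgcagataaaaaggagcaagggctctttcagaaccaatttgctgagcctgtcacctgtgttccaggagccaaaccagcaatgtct

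Of the 9 members, 4 rose in NICD_mut kidneys (Aldh1a1, Rara, Rarg and Crabp1), 1 fell (Crabp2) and 4 did not pass the test (Aldh1a2, Aldh1a3, Rarb and Stra6). All 9 passed the filter on low counts. With 47.7% of all tested genes called, 5 of 9 is near the background. Their median log2 fold change was -0.13, against 0.01 over all tested genes, and 6 of 9 had groups that did not overlap, against 67.2% of all tested genes. The number that fell was 2 by the DESeq2 Wald test, where Aldh1a3 also passed.

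**Figure D1:**
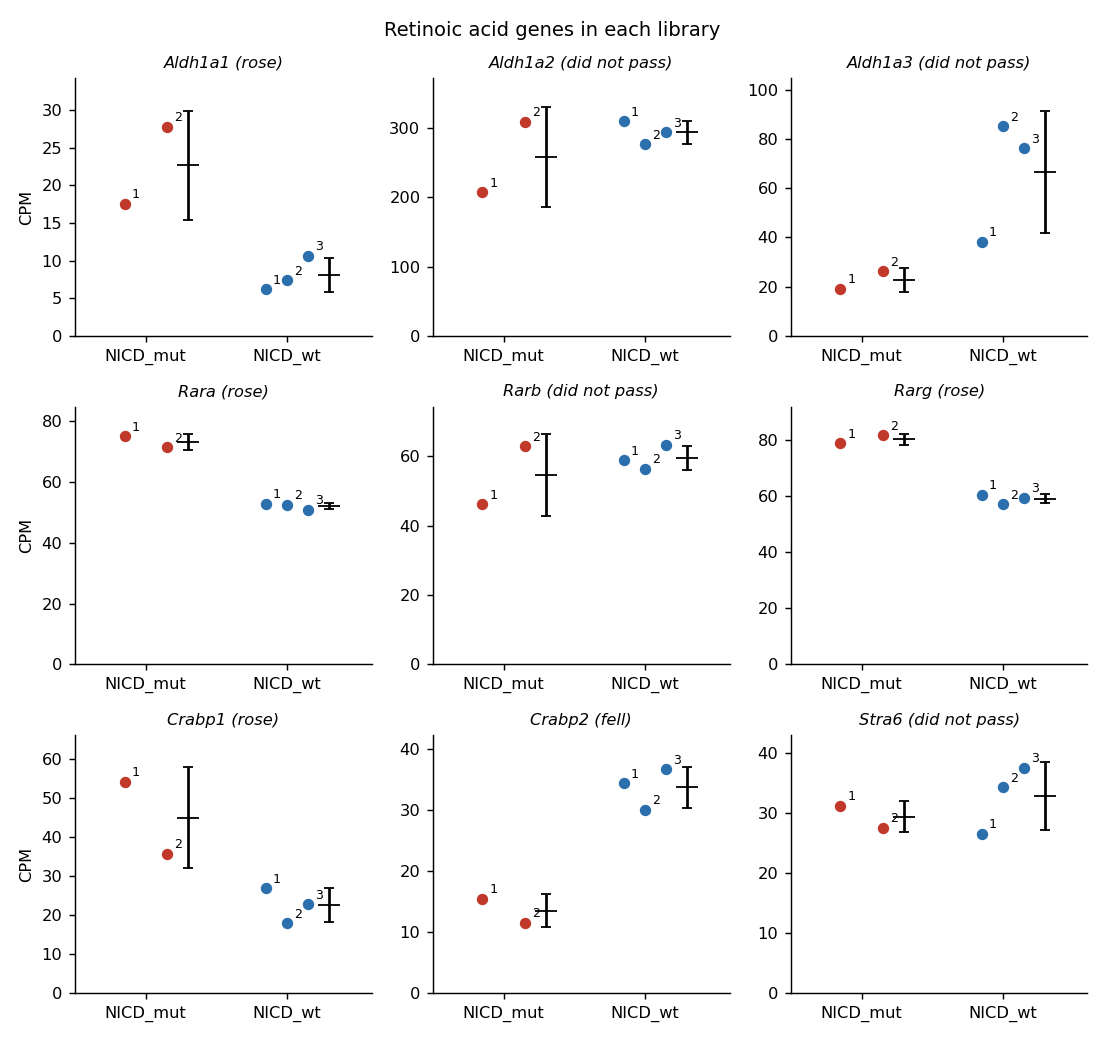
CPM of each of the 9 genes in the 2 NICD_mut libraries (red, left) and the 3 NICD_wt libraries (blue, right); numbers are replicate numbers, and the black mark is the mean with its SD. The groups do not overlap for Aldh1a1, Aldh1a3, Rara, Rarg, Crabp1 and Crabp2, and do overlap for Aldh1a2, Rarb and Stra6.

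The synthesis enzymes differed from each other in their response. Aldh1a1 rose, the abundant Aldh1a2 did not pass, and Aldh1a3 was lower in both NICD_mut libraries without passing the test. Aldh1a1 (chromosome 19, 20492715 to 20643465, plus strand, mm10) oxidises retinal and other aldehydes. It had 17.5 and 27.8 CPM in NICD_mut, against 6.24, 7.44 and 10.6 CPM in NICD_wt. Both NICD_mut libraries lay above every NICD_wt library, and the lower of them was NICD_mut 1. The log2 fold change was 1.48 (SE 0.28; edgeR adjusted p = 0.00560), a 2.80-fold difference. With each library left out the log2 fold change was 1.11 to 1.78, and Aldh1a1 stayed past the threshold without any NICD_wt library.

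Aldh1a7, a close copy of Aldh1a1 in the mouse, shared 3.06% of the 50-base words of Aldh1a1 transcripts, and RSEM assigns such reads by estimation. Aldh1a7 had 9.94 and 11.6 CPM in NICD_mut, against 11.98, 14.9 and 14.6 CPM in NICD_wt, which is a log2 difference of -0.36 (SE 0.16) that did not pass. The copies thus had opposite signs. With their counts summed, the pair had 27.5 and 39.4 CPM in NICD_mut and 18.2, 22.4 and 25.2 CPM in NICD_wt, which is a log2 difference of 0.61 (SE 0.19; edgeR adjusted p = 0.0356). The split of reads between the copies was not varied here.

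Aldh1a2 (chromosome 9, 71215789 to 71296243, plus strand) is the main retinoic acid synthesis enzyme of the embryo. It had 207 and 310 CPM in NICD_mut, against 310, 277 and 294 CPM in NICD_wt. NICD_mut 1 was below every NICD_wt library, and NICD_mut 2 was at the level of the highest. Its log2 fold change was -0.18 (SE 0.19) and did not pass (edgeR adjusted p = 0.468). The NICD_mut pair pulled this value in opposite directions. Without NICD_mut 1 it was 0.074, and without NICD_mut 2 it was -0.51 and passed, in a fit whose lone NICD_mut library is assumed to vary like the NICD_wt group.

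Aldh1a3 (chromosome 7, 66390890 to 66427517, minus strand), the third enzyme that makes retinoic acid from retinal, had 19.3 and 26.3 CPM in NICD_mut, against 38.3, 85.1 and 76.2 CPM in NICD_wt. Both NICD_mut libraries were below every NICD_wt library, while the NICD_wt group was itself spread 2.22-fold from lowest to highest, with NICD_wt 1 the low library. On the log2 scale the fold change was -1.54 (SE 0.48) and did not pass (edgeR adjusted p = 0.0756), though its size is close to that of Aldh1a1 with the sign turned. Without NICD_wt 1 it was -1.82 and passed (edgeR adjusted p = 0.000728). Aldh1a3 also passed with the DESeq2 Wald test (-1.54), with limma on log2(TPM + 1) (-1.27) and with replicate number as a block (-1.35). In the block fit NICD_wt 3, the only library numbered 3, adds nothing to the difference. Aldh1a3 did not pass with limma-voom (-1.48), without the filter (-1.56), with at least 50 counts in 2 libraries required (-1.52) or against a minimum fold of 1.5.

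In TPM, the deposited abundance scaled by gene length and depth, which allows levels of different genes to be set beside each other, Aldh1a2 made up 86.3 and 85.9% of the summed level of the enzymes in NICD_mut and 89.5, 80.8 and 82.6% in NICD_wt. Aldh1a1 took 8.25 and 8.72% in NICD_mut, against 2.04, 2.46 and 3.38% in NICD_wt. Aldh1a3 took 5.49 and 5.37% in NICD_mut, against 8.43, 16.8 and 14.0% in NICD_wt. Aldh1a1 was thus above Aldh1a3 in both NICD_mut libraries and below it in every NICD_wt library. The summed level of the enzymes was 205 and 296 TPM in NICD_mut and 266, 265 and 274 TPM in NICD_wt, and the groups overlapped.

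Markers of cell types of the kidney and its surroundings were read beside these enzymes. Over all tested genes 23% were higher and 24.8% lower in NICD_mut. Of 15 stromal markers 6 rose, 2 fell and 7 did not pass, while 9 rose by DESeq2 and 4 by limma-voom. Their summed level was 12290 and 6255 CPM in NICD_mut, against 3460 to 4267 CPM in NICD_wt. Most of that sum was Col1a1 and Col3a1, which did not pass; the other 13 markers summed to 2403 and 1815 CPM in NICD_mut, against 1365, 1344 and 1294 CPM in NICD_wt. Of 12 ureteric epithelium markers 11 fell and 1 rose (Krt8), with summed levels of 466 and 366 CPM in NICD_mut and 807 to 847 CPM in NICD_wt. Among 7 urothelium markers 0 rose, 1 fell and 6 did not pass, with sums of 122 and 56.1 CPM in NICD_mut and 83.4 to 99.9 CPM in NICD_wt. Of 10 proximal tubule markers 6 rose, 3 fell and 1 did not pass, with sums of 1292 and 1451 CPM in NICD_mut and 592 to 725 CPM in NICD_wt. Among 8 podocyte markers 7 rose and 1 fell, while 5 rose by limma-voom. Their sums were 1557 and 2282 CPM in NICD_mut and 872 to 927 CPM in NICD_wt. Of 9 mesothelium and capsule markers 0 of the 8 tested passed the edgeR test (1 rose at an unadjusted p under 0.05, 1 by DESeq2 and 0 by limma-voom), with sums of 168 and 102 CPM in NICD_mut and 85.8 to 101 CPM in NICD_wt. Of 11 adrenal and gonad markers 5 were tested, of which 2 rose (Th at 3.29 and Dbh at 3.28 on the log2 scale) and 3 did not pass; Cyp17a1, Cyp21a1 and Insl3 were at 0 in every library, and the sum was 12.6 and 9.27 CPM in NICD_mut against 6.85 to 8.66 CPM in NICD_wt. The part of these cell types in the changes of the enzymes was not tested.

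**Figure D2:**
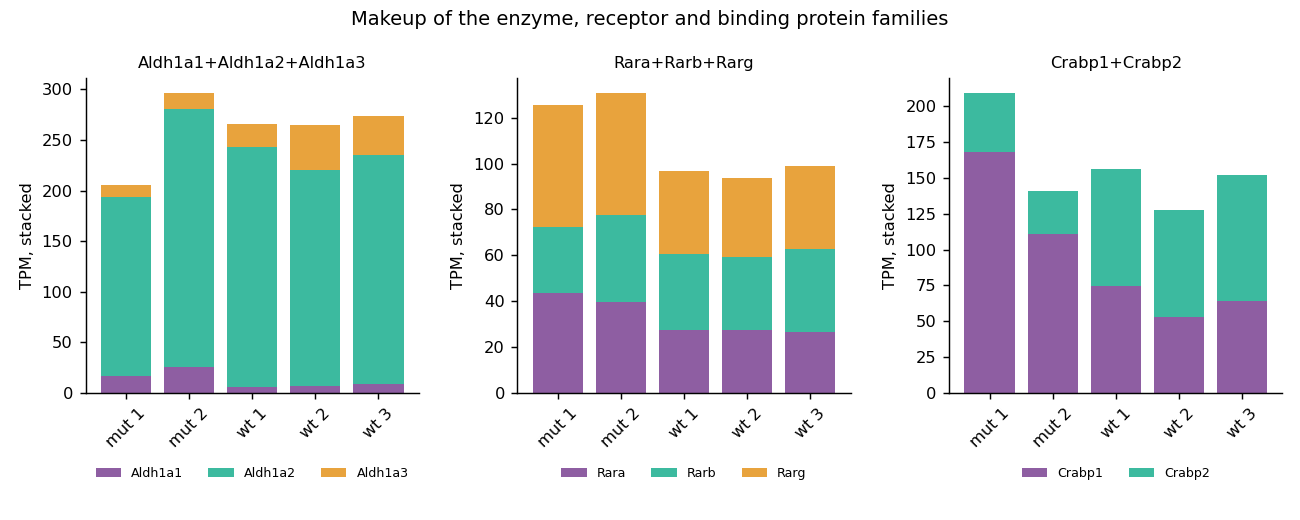
Stacked TPM of the Aldh1a enzymes, the Rar receptors and the Crabp proteins in each library, with the NICD_mut libraries on the left of each panel and the NICD_wt libraries on the right. Aldh1a2 fills most of each enzyme bar, the receptor bars are taller in NICD_mut (126 and 131 TPM) than in NICD_wt (93.9 to 98.9 TPM), and Crabp1 takes the larger share of the binding protein bars in NICD_mut only.

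Among the receptors Rara and Rarg rose by similar amounts, and Rarb did not pass. Rara (chromosome 11, 98927818 to 98974942, plus strand) is the broadly expressed receptor. It had 74.9 and 71.3 CPM in NICD_mut, against 52.9, 52.5 and 50.8 CPM in NICD_wt. Libraries of each group lay close together, and the groups were far apart relative to that spread. The fitted log2 fold change was 0.49 (SE 0.07; edgeR adjusted p = 0.00036), a 1.40-fold difference. Rarg (chromosome 15, 102234938 to 102257517, minus strand) had 78.8 and 81.6 CPM in NICD_mut, against 60.5, 57.2 and 59.4 CPM in NICD_wt. Its log2 fold change was 0.44 (SE 0.06; edgeR adjusted p = 0.000527), a 1.36-fold difference. These were the steadiest of the members: with each library left out the log2 fold change was 0.45 to 0.52 for Rara and 0.41 to 0.47 for Rarg. Each passed whichever NICD_wt library was left out. Neither passed a test against a minimum fold of 1.5.

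Rarb (chromosome 14, 16430839 to 16819156, minus strand) is both a receptor and a classic retinoic acid target. It had 46.2 and 62.9 CPM in NICD_mut, against 58.8, 56.5 and 63.3 CPM in NICD_wt. As with Aldh1a2, NICD_mut 1 was below all NICD_wt libraries and NICD_mut 2 lay among them. The log2 fold change was -0.13 (SE 0.13; edgeR adjusted p = 0.459). Without NICD_mut 1 it was 0.078, and without NICD_mut 2 it was -0.38 and passed. Its exons overlap those of Top2b on the other strand by 1793 bases in the GENCODE annotation. Top2b had 6345 and 6696 counts in NICD_mut and 6729, 7133 and 6052 in NICD_wt, against 984 and 1275 counts of Rarb in NICD_mut and 1169, 1207 and 1101 in NICD_wt. The sources used here do not give the strand setting, so reads of the overlap cannot be assigned to either gene. No other member shared exon bases with an annotated neighbour that had a row.

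The receptors together had 126 and 131 TPM in NICD_mut, against 96.9, 93.9 and 98.9 TPM in NICD_wt. By limma on log2(TPM + 1) the median log2 fold change of all tested genes was itself 0.106. Rarb held 22.9 and 29.1% of this sum in NICD_mut, against 34.1, 34.3 and 36.3% in NICD_wt. The share of Rara was 34.6 and 30.3% in NICD_mut, against 28.4, 29.1 and 27.0% in NICD_wt. In NICD_wt libraries the levels of Rara (27.2 ± 0.429 TPM), Rarb (33.7 ± 1.95 TPM) and Rarg (35.7 ± 1.095 TPM; SD, n = 3) lay close to each other, and Rarb and Rarg differed by less than 1 SD of Rarb. Within each NICD_wt library, though, Rarg was above Rarb. In NICD_mut Rarg led at 53.2 ± 0.311 TPM, with Rara at 41.5 ± 2.73 TPM and Rarb at 33.4 ± 6.53 TPM (SD, n = 2).

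The binding proteins moved in opposite directions. Crabp1 (chromosome 9, 54764748 to 54773110, plus strand) had 54.2 and 35.7 CPM in NICD_mut, against 26.8, 17.9 and 22.8 CPM in NICD_wt. Both NICD_mut libraries were above every NICD_wt library, with NICD_mut 1 the higher. The log2 fold change was 0.999 (SE 0.24; edgeR adjusted p = 0.0221), a 1.998-fold difference. Without NICD_mut 1 it was 0.67 and passed, and without NICD_wt 3 it was 1.01 and did not (edgeR adjusted p = 0.0722). Crabp1 is also known from the embryonic nervous system, so peripheral glia and neuron markers were read beside it: 4 of 7 tested rose, 1 fell (Elavl4) and 2 did not pass, with sums of 31.8 and 20.5 CPM in NICD_mut and 17.2 to 20.4 CPM in NICD_wt, and none of the 8 listed was at 0 in all libraries. Over all tested genes 23% were higher and 24.8% lower, and the part of these markers in the Crabp1 value was not tested.

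Crabp2 (chromosome 3, 87948666 to 87953376, plus strand) had 15.4 and 11.5 CPM in NICD_mut, against 34.4, 30.0 and 36.7 CPM in NICD_wt. Every NICD_wt library was above both NICD_mut libraries. It was the only member that fell in the edgeR test with all libraries, with a log2 fold change of -1.32 (SE 0.15; edgeR adjusted p = 0.000151), and it was at 0.401 times the NICD_wt level. With each library left out the log2 fold change was -1.55 to -1.13. Crabp2 passed whichever NICD_wt library was left out, and against a minimum fold of 1.5. In TPM, Crabp1 took 80.5 and 78.6% of the Crabp sum in NICD_mut, against 47.8, 41.5 and 42.3% in NICD_wt. Crabp1 was thus the more abundant in both NICD_mut libraries and the less abundant in every NICD_wt library. The sum itself was 209 and 141 TPM in NICD_mut and 156, 128 and 152 TPM in NICD_wt, which overlapped.

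Stra6 (chromosome 9, 58063788 to 58153996, plus strand) had 31.2 and 27.5 CPM in NICD_mut, against 26.5, 34.2 and 37.5 CPM in NICD_wt. Both NICD_mut libraries lay within the range of the NICD_wt libraries. The log2 fold change was -0.16 (SE 0.15; edgeR adjusted p = 0.42), and its sign turned by limma on log2(TPM + 1), to 0.03. On that scale the median of all tested genes was shifted by 0.106, so the value lies below that of the median gene there too.

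**Figure D3:**
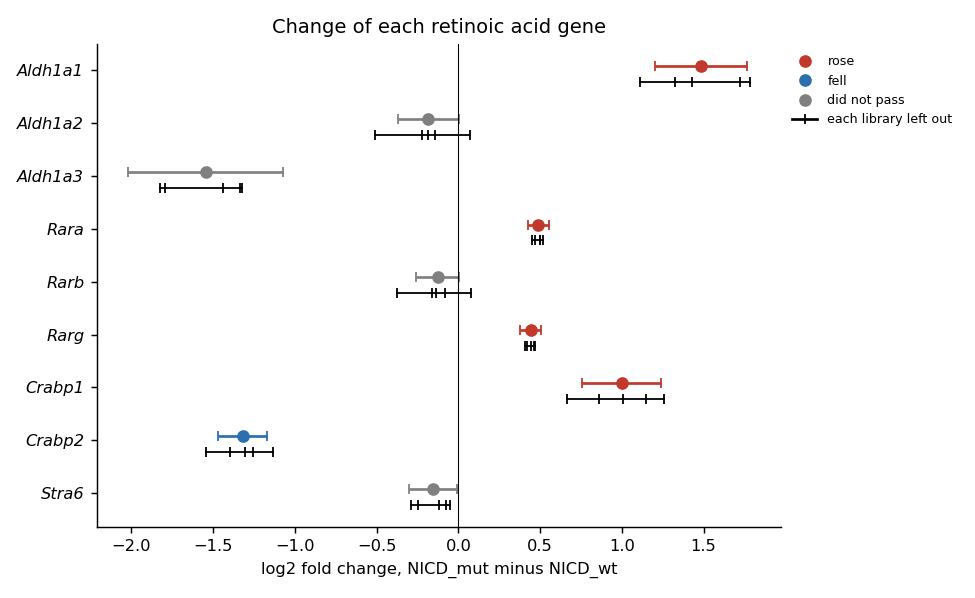
Log2 fold change of each gene (NICD_mut minus NICD_wt) with its SE from the edgeR fit, coloured by call, and below it in black the values with each of the 5 libraries left out. The values of Rara and Rarg stay between 0.41 and 0.52, those of Aldh1a1, Crabp1, Crabp2 and Aldh1a3 keep their sign, and those of Aldh1a2 and Rarb cross 0.

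By level per length, Aldh1a2 was the most abundant member in both groups, at 216 ± 54.5 TPM in NICD_mut (SD, n = 2) and 226 ± 12 TPM in NICD_wt (SD, n = 3). The next in NICD_mut was Crabp1 (139 ± 40.8 TPM), then Rarg (53.2 ± 0.311 TPM). Rara (41.5 ± 2.73 TPM) and Crabp2 (35.4 ± 7.45 TPM) overlapped between libraries, as did Crabp2 and Rarb (33.4 ± 6.53 TPM). Aldh1a1 (21.4 ± 6.26 TPM) and Stra6 (19.1 ± 2.58 TPM) overlapped too, and Aldh1a3 (13.6 ± 3.27 TPM) was lowest. In NICD_wt the order after Aldh1a2 was Crabp2 (81.3 ± 6.58 TPM), Crabp1 (64.0 ± 10.9 TPM), whose libraries just overlapped, then Rarg, Aldh1a3 (35.0 ± 11.4 TPM) and Rarb at overlapping levels, Rara (27.2 ± 0.429 TPM), which lay within the range of Aldh1a3, Stra6 (18.8 ± 3.16 TPM) and, lowest, Aldh1a1 (7.05 ± 1.98 TPM). Aldh1a1 and Aldh1a3 thus exchanged the last place between the groups.

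Genes with the most similar profile over the 5 libraries were sought among 10905 tested genes with standard symbols and a mean log2 CPM of at least 3, by the root mean square difference of log2 CPM after each gene was centred on its own mean. For Rarg these were Insig2 (0.00785) and Map7d1 (0.0123), for Rara Zfp651 (0.0152) and Tmem175 (0.0186). The nearest to Crabp2 were Tmem97 (0.0707) and Dnph1 (0.0740), to Crabp1 Arhgap20 (0.112) and Adamts12 (0.119), and to Aldh1a1 Acpp (0.142) and Phf1 (0.179). Such closeness rests on 5 libraries and on the group difference, and many genes share a group difference of this size.

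Of 64 other genes of retinoid metabolism and response, 55 were tested, of which 10 rose, 11 fell and 34 did not pass, with a median log2 fold change of 0.10. The share called was below the 47.7% of all tested genes, and no set test was made. The steps of the pathway are given below in order. Each count is to be read beside the 23% called higher and 24.8% called lower over all tested genes.

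Among 12 carriers and storage genes, 10 were tested, of which 0 rose, 2 fell and 8 did not pass by the edgeR test. At an unadjusted p under 0.05 2 of them rose in that test, and after adjustment 0 rose by DESeq2 and 2 by limma-voom. Fabp5, a fatty acid binding protein that can also carry retinoic acid, had 64.3 and 65.5 CPM in NICD_mut, against 125, 108 and 117 CPM in NICD_wt, which is a log2 difference of -0.85 (SE 0.07). The groups did not overlap for Fabp5. Lrat, which esterifies retinol for storage, was at 1.17 (SE 0.44) on the log2 scale and did not pass (edgeR adjusted p = 0.054).

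Of 17 tested oxidoreductases 4 rose, 3 fell and 10 did not pass. Rdh10, the main retinol dehydrogenase of the embryo, had 33.1 and 38.5 CPM in NICD_mut, against 53.6, 50.4 and 58.6 CPM in NICD_wt, which is a log2 difference of -0.60 (SE 0.10; edgeR adjusted p = 0.00112). Rdh16 had 10.04 and 5.67 CPM in NICD_mut, against 1.16, 0.795 and 1.15 CPM in NICD_wt, which is a log2 difference of 2.92 (SE 0.33). The 2 dehydrogenases thus went opposite ways, without overlap between the groups for either. Rdh13 was at -0.60 (SE 0.11) and Aldh8a1, an aldehyde dehydrogenase, at -1.45 (SE 0.33), and both fell. Dhrs7 (0.79, SE 0.21), Rdh12 (0.91, SE 0.29) and Adh1 (0.52, SE 0.15) rose, but without NICD_mut 1 Dhrs7 (0.56) and Adh1 (0.22) did not pass. Adh1 also missed the threshold with any NICD_wt library left out, at log2 fold changes of 0.52 to 0.53, and Rdh12 without NICD_mut 2 (0.77), NICD_wt 1 (0.77) or NICD_wt 2 (0.94). Dhrs3, which turns retinal back into retinol and responds to retinoic acid, had a log2 fold change of 0.10 (SE 0.09) and did not pass, while without NICD_mut 1 it rose by 0.22.

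Of the degrading enzymes, Cyp26b1 fell and Cyp26a1 had no count in NICD_mut. Cyp26b1 had 12.9 and 15.9 CPM in NICD_mut, against 23.7, 29.8 and 27.9 CPM in NICD_wt, with no overlap and a log2 fold change of -0.92 (SE 0.14; edgeR adjusted p = 0.000815). Cyp26a1, a gene that retinoic acid itself induces, had 0 counts in NICD_mut, against 8, 9 and 5 counts in NICD_wt. The 3 counts that a count of 0 allows were set over the NICD_mut group, and the 22 NICD_wt counts were taken as exact. On that reckoning Cyp26a1 was at least 5.20-fold lower in NICD_mut. This bound allows for counting error in NICD_mut only, and the gene was below the filter and not tested. Cyp26c1 had no count in any library.

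Of 13 Rxr receptors and receptor coregulators 3 rose, 1 fell and 9 did not pass. Rxra, the main partner of the Rar receptors, had 209 and 192 CPM in NICD_mut, against 146, 163 and 151 CPM in NICD_wt, which is a log2 difference of 0.39 (SE 0.07; edgeR adjusted p = 0.002). Rxrb was at -0.04 (SE 0.08) and did not pass. The coactivator Ep300 rose by 0.37 (SE 0.07), while Med1, a Mediator subunit, was at -0.30 (SE 0.07) and fell. Rara, Rarg and Rxra thus each rose by less than 1.5-fold in the edgeR fit. By limma on log2(TPM + 1), Rara was at 0.594, Rarg at 0.565 and Rxra at 0.512. The median of all tested genes on that scale was 0.106.

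Of 14 tested genes known to respond to retinoic acid in some tissue, 3 rose, 4 fell and 7 did not pass. Over all tested genes 23% were higher and 24.8% lower in NICD_mut, so this list is near the background. Tgm2, a transglutaminase, had 165 and 136 CPM in NICD_mut, against 66.3, 71.2 and 69.6 CPM in NICD_wt, which is a log2 difference of 1.12 (SE 0.09). Rai2 rose by 1.73 (SE 0.18) and Rarres2, which encodes the secreted protein chemerin, by 0.94 (SE 0.14). In the other direction, Hoxb5 had 7.27 and 6.36 CPM in NICD_mut, against 17.7, 15.9 and 16.6 CPM in NICD_wt, which is a log2 difference of -1.29 (SE 0.15). Ret, the ureteric receptor whose expression needs stromal retinoic acid, had 4.92 and 2.27 CPM in NICD_mut, against 65.1, 66.3 and 57.3 CPM in NICD_wt, which is a log2 difference of -4.12, and -4.79 without NICD_mut 1, and is itself in the ureteric marker list of which 11 of 12 fell. Zfp503 was at -0.44 (SE 0.07) and Meis2, a homeobox gene, at -0.35 (SE 0.07), and both fell. The listed genes thus went both ways, at shares near those of all tested genes. They were not sorted by the direction in which retinoic acid moves each of them. Of the genes outside this list that were described above as responding to retinoic acid, Rarb and Dhrs3 did not pass with all libraries. Cyp26a1, also described so, had no count in NICD_mut, against 8, 9 and 5 counts in NICD_wt, and was not tested. The other members and pathway genes were not sorted by whether they respond to retinoic acid. Among them Crabp2 and Cyp26b1 fell, and Stra6 did not pass.

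**Figure D4:**
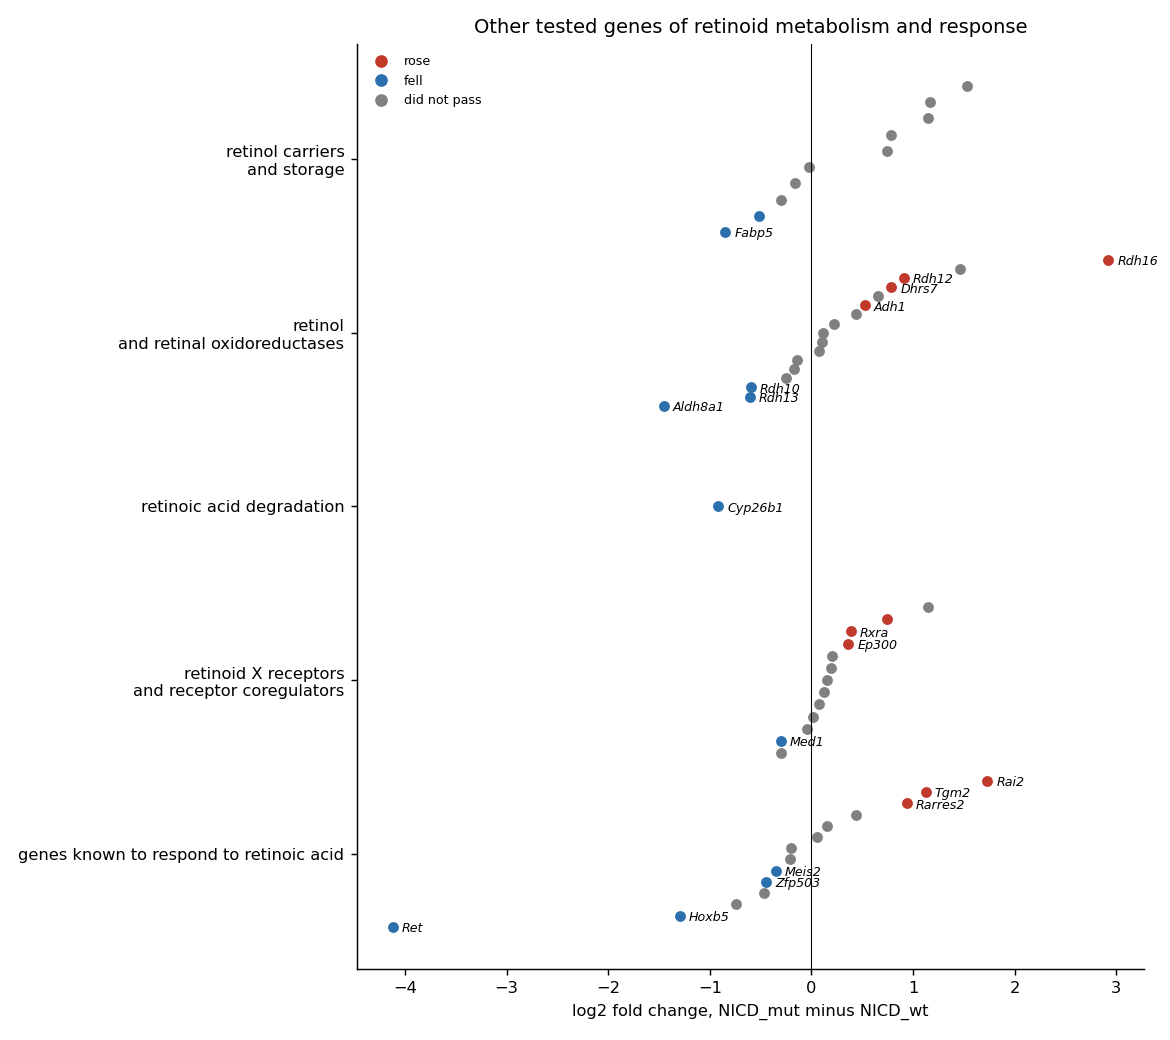
Log2 fold change (NICD_mut minus NICD_wt) of the 55 other tested retinoid genes, grouped by role and coloured by call in the edgeR test; called genes described in the text are named. Each group except the degrading enzymes, with 1 tested gene, and the carriers, where 2 fell and 0 rose, holds genes called in both directions.

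**Figure D5:**
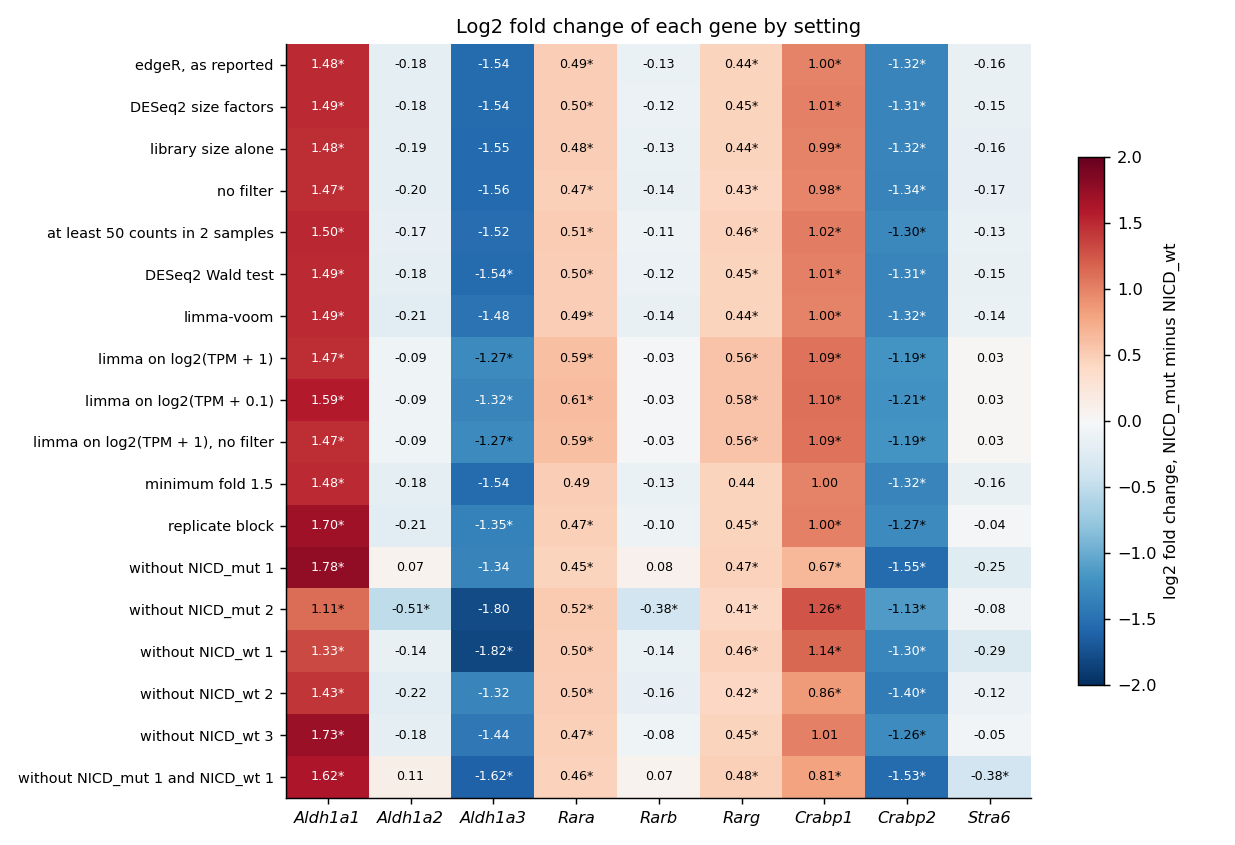
Log2 fold change (NICD_mut minus NICD_wt) of each gene under each scaling, filter, test or left-out library, with an asterisk where the adjusted p was under 0.05. Aldh1a1 and Crabp2 carry an asterisk in every row, Aldh1a3 in some, and Aldh1a2 and Rarb only in the fit without NICD_mut 2.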

How the data were processed

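Whole-kidney RNA was sequenced in 2 NICD_mut and 3 NICD_wt libraries. The authors deposited estimated counts per gene symbol, which are whole numbers as deposited, and TPM for the same libraries. The submitters' processing notes name RSEM, Bowtie2 and mm10; the sources used here give no version, annotation or strand setting. Columns were matched to samples by name.

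Counts were filtered with filterByExpr (minimum count 10, minimum total 15), scaled with TMM factors of 0.9964 to 1.0054, and tested over 15885 genes with edgeR 4.0.16 (quasi-likelihood, robust dispersion) in R 4.3.3, for NICD_mut against NICD_wt with no covariate, and p-values were adjusted by Benjamini-Hochberg over all tested genes and a threshold of 0.05. SE is the absolute log2 fold change over the square root of F.

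All 9 members are named. From each pathway list up to 6 called genes of smallest adjusted p are named, and the seventh called gene of a list (Rdh12, Meis2), and Lrat, Dhrs3, Rxrb, Cyp26a1, Cyp26c1, Aldh1a7, Top2b and the single markers named, were added after their values were seen; 2 other called genes are not reported here. The members and lists were chosen with earlier results of these data known.

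Alternatives were other scalings, filters, DESeq2 1.42.0, limma 3.58.1 on counts and on log2 TPM with pseudocounts of 1 and 0.1, a minimum fold of 1.5, a replicate block and left-out libraries. Summing Aldh1a1 with Aldh1a7 was chosen after seeing the data. Gene coordinates are from GENCODE M21 (mm10, 1-based). Figures were drawn with matplotlib 3.10.9.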

Additional observations from a re-analysis of the deposited data

How the results depend on the processing

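The counts of the members held under other scalings and filters and by limma-voom. The number that fell was 2 by the DESeq2 Wald test, by limma on log2(TPM + 1) with and without the filter, by limma on log2(TPM + 0.1) and with the replicate block, each time through Aldh1a3. With a minimum fold of 1.5, 1695 genes passed, 2 of them members, of which 1 rose and 1 fell; of the other retinoid genes 7 passed, 4 higher and 3 lower. With each library left out, members that passed numbered 4 to 7, those that rose 3 to 4 and those that fell 1 to 3, while the other retinoid genes numbered 19 to 25, with 8 to 12 higher and 11 to 13 lower, and all genes 5898 to 8050. Leaving out NICD_mut 2 gave the 7 members, since Aldh1a2 (-0.51) and Rarb (-0.38) then fell, and leaving out NICD_wt 3 gave the 4. Without NICD_mut 1 and NICD_wt 1 together, 3 members fell (Crabp2, Aldh1a3 and Stra6 at -0.38), and Rdh12 (0.89), Dhrs7 (0.61) and Adh1 (0.23) no longer passed. The sign turned for Aldh1a2 without NICD_mut 1 (0.074) and without both muscle-rich libraries (0.11), for Rarb in the same fits (0.078 and 0.067), and for Stra6 by limma on log2(TPM + 1) with and without the filter (0.028) and on log2(TPM + 0.1) (0.030), for Dhrs3 without NICD_mut 2 (-0.048; 0.22 without NICD_mut 1), and for Rxrb by those TPM fits (0.074 and 0.075), without NICD_mut 1 (0.047; -0.14 without NICD_mut 2) and without both muscle-rich libraries (0.084). The cause was not tested.

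Replicate numbers 1 and 2 occur in both groups, and nothing in the labels says that they mark a shared litter or day. Deviations from the group means correlated at 0.529 for the libraries numbered 1 and 0.268 for those numbered 2 over 11394 genes, but at 0.370 for NICD_mut 2 with NICD_wt 3, and the deviations of the NICD_mut pair mirror each other, so the values are not independent. With the replicate block 5535 genes passed, against 7583 without it. In that fit NICD_wt 3 has no counterpart in NICD_mut and adds nothing to the difference. There 6 members passed, and 19 other retinoid genes, and Rdh12 (1.03) and Dhrs7 (0.76) no longer did. Depth limits Cyp26a1, which had at most 9 counts in a library and was not tested.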
